A study of Rhodotorula toruloides with 18 samples.

Results

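The response of a cbr1 deletion strain of the oil-storing yeast Rhodotorula toruloides to cellobiose was measured against its response to succinate. The comparison used 6 of the 18 RNA-seq libraries of the series, 3 from cells on cellobiose and 3 from cells on succinate, taken by the strain and medium in their labels. The deletion strain, made in IFO0880, has genotype yku70::HygR cbr1::NatR. The strain called wild type is not unmodified, since it has genotype yku70::HygR, so both strains lack yku70 and carry a hygromycin marker, and the deletion strain carries a nourseothricin marker as well. Cells came from overnight growth in a rich glucose medium and were then kept for 8 h at 28 degrees C in yeast nitrogen base of pH 6.2 with 1% cellobiose, 1% succinate or no carbon source. Each of the 6 groups of strain and medium held 3 biological replicates. The labels do not say whether the deletion strain was 1 clone. The deposited values are TPM, a measure of transcript abundance scaled by gene length and to the same total in every library.

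Cellobiose is a disaccharide that cells split into glucose, usually with a beta-glucosidase. Succinate is a dicarboxylic acid of the tricarboxylic acid cycle, and cells that live on it must make their sugars by gluconeogenesis. In carbon catabolite repression a preferred carbon source keeps the genes for other sources low. The series concerns how a transcription factor ties the use of carbon sources to this repression. Ku70, the product of yku70, acts in non-homologous end joining, and fungal strains without it are commonly used because introduced DNA then integrates more often at the intended site. The files give genes by identifier only. A search of all 8484 in a reference annotation of another strain, NP11, with 8171 genes found 0. Genes are therefore described by their levels across media and strains, with no function given, and the cbr1 transcript itself was not checked.

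The 3 deletion libraries on cellobiose were alike, and the 3 on succinate were less so. Correlation of log2(TPM + 1) over the 7938 genes tested (Pearson's r, a description since genes are not replicates) was 0.978 to 0.991 between the libraries on cellobiose and 0.921 to 0.959 between those on succinate. Wild type libraries had r of 0.913 to 0.982 on succinate and 0.920 to 0.980 without carbon. The median over genes of the SD of log2(TPM + 1) was 0.34 in the deletion strain on succinate. It was 0.20 there on cellobiose and 0.29 without carbon. In the wild type it was 0.40 on succinate, 0.52 without carbon and 0.30 on cellobiose, so wide spread was not particular to this group. Between 36 and 282 genes differed at least 2-fold on the TPM + 1 scale between any 2 deletion libraries on cellobiose. On succinate 509 genes did so between replicates 1 and 2, 950 between replicates 2 and 3 and 1573 between replicates 1 and 3. Of the succinate libraries, replicate 1 lay nearest to the deletion libraries on cellobiose, with r from 0.938 to 0.952. It differed at least 2-fold from those cellobiose libraries in 871 to 1196 genes. Its r was 0.959 with succinate replicate 2, 0.921 with succinate replicate 3 and 0.922 to 0.960 with the wild type libraries on cellobiose. With the deletion libraries on cellobiose the r of replicate 2 was 0.899 to 0.923, and that of replicate 3 was 0.826 to 0.859. Succinate replicate 3 of the deletion strain differed at least 2-fold from wild type succinate replicates 1, 2 and 3 in 124, 90 and 2097 genes, so it was closer to the first pair of those than to its own group.

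Labels were checked with genes that separate the other libraries cleanly. With succinate replicate 1 of the deletion strain set aside, 54 genes had every library on cellobiose, of both strains, at least 1 log2 unit above or below every library on succinate. The library labelled succinate replicate 1 fell within the range of the libraries on cellobiose for 30 of these 54 genes, between the ranges for 23 and within the range of the libraries on succinate for 1. Its values thus went against its medium label in 30 of these 54 genes. Over all genes its highest r was with wild type cellobiose replicate 2, at 0.960. Its r was 0.959 with succinate replicate 2 of its own strain and 0.921 with replicate 3. What set it apart was not tested. For each other deletion library on these media, set aside with the library labelled succinate replicate 1 kept in, only 6 or 7 genes separated the media. Of these genes 0 placed the library in the range of the other medium. For cellobiose replicate 3, 2 of 7 fell in the cellobiose range and 5 between. The strain label could be checked with 1 gene, which separated all other deletion libraries from all wild type libraries by at least 1 log2 unit, and each of the 6 deletion libraries on cellobiose or succinate fell within the deletion range when set aside in turn. The main counts of the deletion strain, and the tests of the genes named, are given below with the library labelled succinate replicate 1 and without it.

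**Figure D1:**
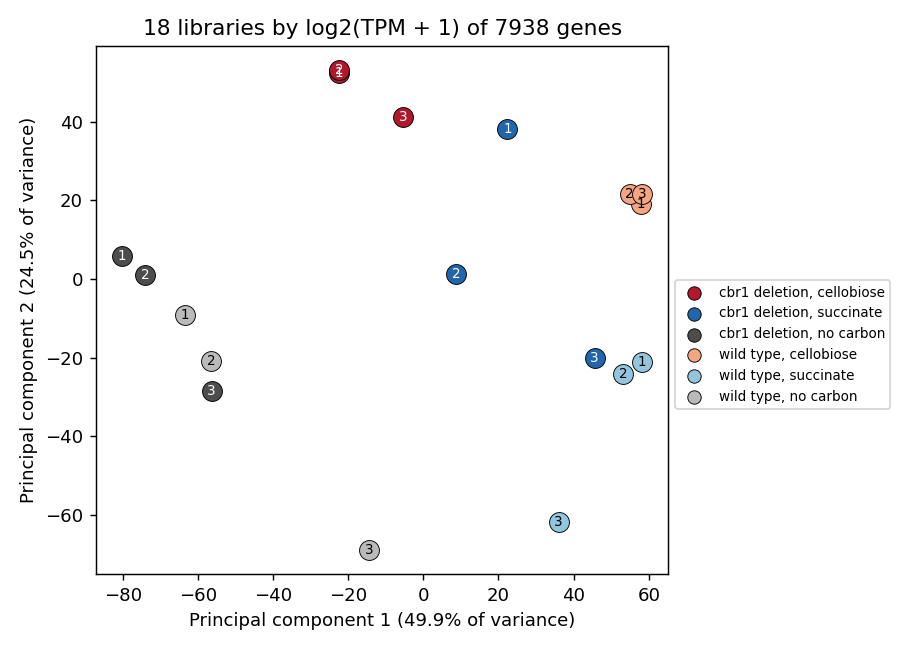
Libraries by the first principal component of log2(TPM + 1) (horizontal, 49.9% of the variance) and the second (vertical, 24.5%). Points are libraries coloured by strain and medium and numbered by replicate. The 3 deletion libraries on cellobiose sit together, while the 3 deletion libraries on succinate are spread. Deletion succinate replicate 1 lies between the deletion and the wild type libraries on cellobiose. Deletion succinate replicate 2 is lower on the second component (1.15 against 38.1), and replicate 3 is near wild type succinate replicates 1 and 2.

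In the deletion strain 1114 of 7938 genes (14.0%) differed between cellobiose and succinate. Calls required an adjusted p below 0.05 in limma (Benjamini-Hochberg) and a log2 difference in TPM + 1 of at least 1 in size. Of these, 660 (8.31%) were higher and 454 (5.72%) lower on cellobiose. Without the library labelled succinate replicate 1 the count was 1467 (18.5%), with 919 (11.6%) higher and 548 (6.90%) lower. Of the 660 higher genes 612 were called the same way without it, and of the 454 lower genes 407 were. No gene called with all 6 libraries was called in the opposite direction without it.

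The balance of directions depended on scaling. After median-ratio scaling of the libraries, which brought the median over all genes to 0.00, 525 genes were called higher and 653 lower on cellobiose. Quantile normalization gave 566 and 650. Higher genes thus made up 59.2% of the calls in TPM, 44.6% after median-ratio scaling and 46.5% after quantile normalization. Of the 660 higher and 454 lower genes in TPM, 497 and 440 were called the same way after median-ratio scaling. With succinate replicate 1 left out, median-ratio scaling gave 726 higher and 838 lower genes and quantile normalization 800 and 811.

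Most called differences were modest. A log2 difference of at least 2 was reached by 89 of the higher and 96 of the lower genes, and one of at least 3 by 10 and 22. These numbers were 182 and 182, and 22 and 47, without the library labelled succinate replicate 1. Over all tested genes the log2 difference had a median of 0.17 and quartiles of -0.30 and 0.61, and the median standard error of a gene was 0.33. For 2659 genes (33.5%) the 95% interval of the difference lay wholly within 1 log2 unit of 0 on either side, and for 1797 (22.6%) without the library labelled succinate replicate 1. The other genes that were not called could differ by more than 2-fold or not, and these data do not say which. The values of the 3 libraries on cellobiose did not overlap those on succinate for 3564 genes (44.9%). Cellobiose was the higher medium for 2174 of them (27.4%) and the lower for 1390 (17.5%). Without the library labelled succinate replicate 1 these counts were 3137 (39.5%) and 1789 (22.5%). Leaving out a library can only keep or raise such counts, so this rise says nothing about that library.

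**Figure D2:**
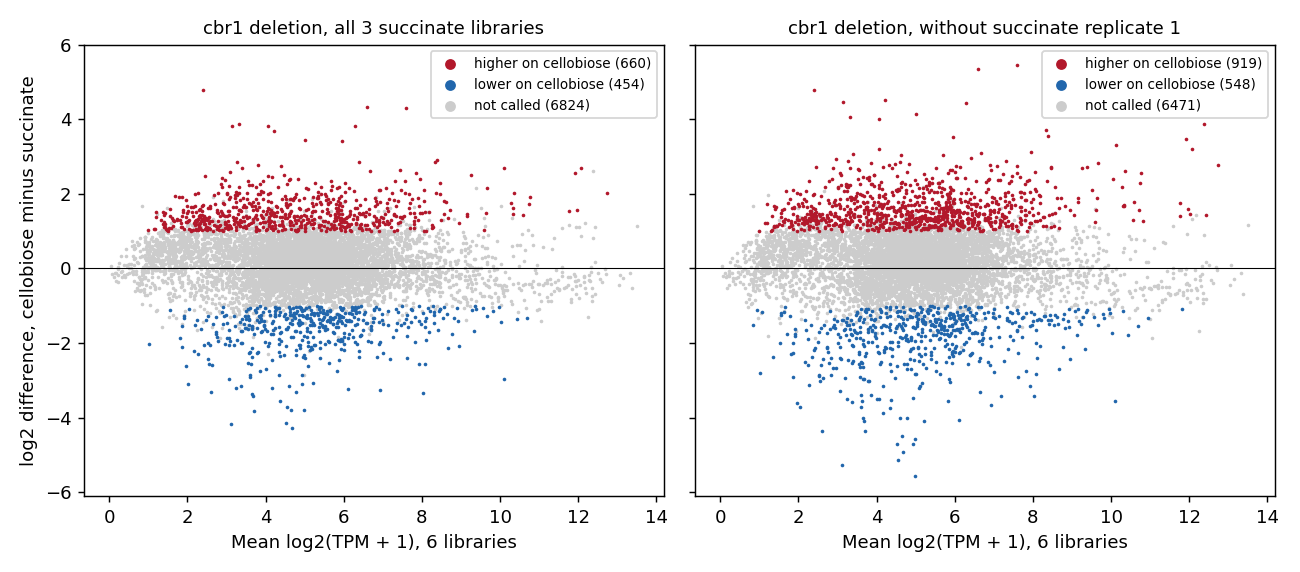
The log2 difference of cellobiose minus succinate in the deletion strain (vertical) against the mean log2(TPM + 1) of all 6 libraries (horizontal), 1 point per gene, with all succinate libraries (left) and without the library labelled replicate 1 (right). Red points are called higher and blue points lower on cellobiose, and the right panel has 919 and 548 against 660 and 454 on the left. In TPM, as drawn, higher genes are the majority, and after median-ratio scaling of all libraries lower genes are (525 higher and 653 lower).

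Leaving out the library labelled succinate replicate 1 raised the count, and leaving out any other deletion library on these media lowered it. Without succinate replicate 3 it was 343 genes (4.32%), with 130 (1.64%) higher and 213 (2.68%) lower on cellobiose. Without cellobiose replicate 1 it was 354, without cellobiose replicate 2 it was 558, without cellobiose replicate 3 it was 905 and without succinate replicate 2 it was 787. A set of 265 genes, 117 higher and 148 lower on cellobiose, was called with all 6 libraries and with each of the 6 left out in turn. Leaving out a library also lowers the number of values behind a mean, and its part in these counts was not tested.

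Of the succinate libraries, the one labelled replicate 1 was most often the nearest to cellobiose. Among the 660 genes higher on cellobiose, it was nearest for 463 genes (70.2%), replicate 2 for 185 and replicate 3 for 12. Replicate 3 was the farthest for 585 (88.6%). Among the 454 lower genes, the one labelled replicate 1 was nearest for 310 (68.3%), replicate 2 for 44 and replicate 3 for 100. Replicate 3 was the farthest for 287 of them (63.2%). These same libraries chose the genes, and the order over all tested genes was not taken, so the counts are a description.

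The 660 genes higher on cellobiose stood on cellobiose near the level they had without carbon, and were low on succinate. Their median, taken within each library, was 43.9, 43.3 and 32.9 TPM in the deletion libraries on cellobiose. On succinate it was 17.3, 14.3 and 7.85 TPM in deletion replicates 1 to 3. Without carbon it was 42.0, 38.2 and 26.2 TPM in the deletion strain. Every deletion library on cellobiose had a higher median than every one on succinate, which the choice of these genes by that difference brings about, and the cellobiose and no carbon medians overlapped.

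The difference that chose these genes is one between deletion libraries. Wild type libraries entered the choice through the filter on mean level and the spread shared by all groups, and leaving out 1 wild type library on cellobiose or succinate gave 1001 to 1222 calls in the deletion strain. In the wild type the median of the 660 genes was 9.71, 10.3 and 8.59 TPM on cellobiose, 6.24, 6.70 and 6.40 TPM on succinate and 31.1, 28.4 and 11.5 TPM without carbon. The genes were thus low on both carbon sources in the wild type, and on succinate alone among the 2 sources in the deletion strain. Together they held 14.8%, 14.8% and 11.8% of all TPM in the deletion libraries on cellobiose, against 6.88%, 4.83% and 2.02% in those on succinate. The wild type libraries had 3.38% to 4.08% on cellobiose and 1.63% to 2.38% on succinate.

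The 454 genes lower on cellobiose stood, in the deletion strain, below their level without carbon on cellobiose and above it on succinate. Their median within a library was 18.6, 21.8 and 19.6 TPM in the deletion strain on cellobiose, against 47.7, 64.2 and 85.3 TPM in its succinate replicates 1 to 3. Without carbon the deletion libraries stood between, at 38.6, 40.7 and 36.9 TPM. In the wild type the median was 73.0, 68.6 and 58.8 TPM on cellobiose, 82.1, 80.3 and 41.6 TPM on succinate and 53.2, 52.3 and 39.2 TPM without carbon. The wild type medians thus overlapped between the carbon sources, while the deletion strain had these genes lower on cellobiose. The overlap came from wild type succinate replicate 3, since replicates 1 and 2 were above every wild type library on cellobiose. The median log2 difference of these genes in the wild type was 0.12, beside 0.43 over all tested genes. The 454 genes held 2.19% to 2.75% of all TPM in the deletion libraries on cellobiose and 5.12% to 9.48% in those on succinate.

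Differences from the medium without carbon were set side by side, which uses the same libraries without carbon for both and, for these genes, the libraries that chose them. For the 660 higher genes the median log2 difference from no carbon was 0.11 on cellobiose and -1.31 on succinate, beside medians over all tested genes of -0.21 and -0.39. For the 454 lower genes it was -0.73 on cellobiose and 0.78 on succinate.

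The 265 genes called with each of the 6 deletion libraries on cellobiose or succinate left out in turn were among the called genes above. Their choice brings about the difference between cellobiose and succinate in the deletion strain, so that difference is no separate evidence. Their profiles were the same, as a description. Median levels of the 117 higher genes ran from 20.2 to 35.5 TPM over the deletion libraries on cellobiose, from 3.93 to 7.96 TPM on succinate and from 18.6 to 30.1 TPM without carbon. Wild type medians of these genes ran from 3.42 to 4.81 TPM on cellobiose and from 3.07 to 3.87 TPM on succinate. For the 148 lower genes the deletion medians ran from 15.7 to 19.4 TPM on cellobiose and from 49.1 to 98.2 TPM on succinate. Wild type medians ran from 66.8 to 91.1 TPM on cellobiose and from 53.4 to 103 TPM on succinate.

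**Figure D3:**
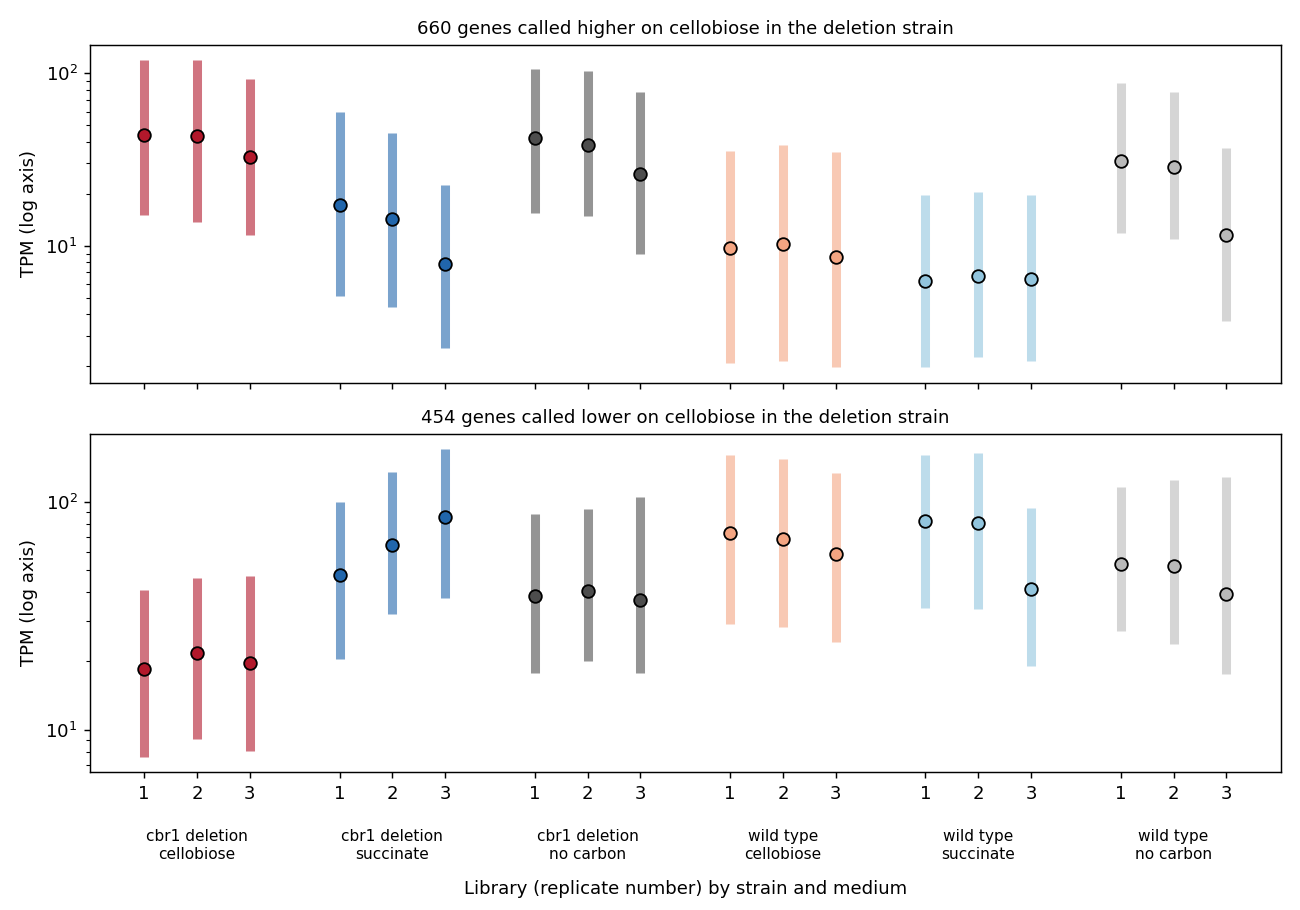
Levels, in TPM on a log axis, of the 660 genes called higher (top) and the 454 called lower (bottom) on cellobiose in the deletion strain, in each of the 18 libraries. Points are medians over the genes and bars run between quartiles. In the top panel the deletion libraries on cellobiose (32.9 to 43.9 TPM) sit at the height of the deletion libraries without carbon (26.2 to 42.0 TPM), and in the bottom panel they are the lowest of all.

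Called genes were found at every level of expression. Among the 1299 tested genes with a mean of 1 to 10 TPM over the 18 libraries, 205 (15.8%) were higher and 22 (1.69%) lower on cellobiose. Among the 5263 genes from 10 to 100 TPM, 336 (6.38%) were higher and 298 (5.66%) lower. Among the 1215 genes from 100 to 1000 TPM, 106 (8.72%) were higher and 128 (10.5%) lower. Of the 161 genes at 1000 TPM or more, 13 were higher and 6 lower. Without the library labelled succinate replicate 1 the higher genes numbered 214, 517, 165 and 23 in these classes, low to high, and the lower genes 30, 336, 169 and 13. The median log2 difference also moved with level and was 0.48 in the lowest of these classes and -0.38 in the highest.

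The most abundant messages were largely the same on both carbon sources. Of the 100 genes with the highest mean TPM in the deletion strain on cellobiose and the 100 on succinate, 82 were shared, and 77 were shared without the library labelled succinate replicate 1. In the cellobiose list 13 genes were called higher, 0 lower and 87 not called, beside 8.31% higher and 5.72% lower over all tested genes. In the succinate list 5 were higher, 3 lower and 92 not called on cellobiose. Among the 18 genes found in the cellobiose list alone, 8 were called higher on cellobiose. The lists were chosen by level in the libraries compared, so these counts are a description. The share of all TPM in the 10 most abundant genes of a library was 11.6%, 11.5% and 11.4% on cellobiose and 9.93%, 8.37% and 12.1% on succinate. These shares overlapped (exact two-sided permutation p = 0.4, and p = 0.7 without the library labelled succinate replicate 1). The smallest p that 3 libraries against 3 allow in this test is 0.1, so it could not have reached 0.05. With a library left out the test allows none smaller. The median TPM of a library, 28.8 ± 3.27 on cellobiose and 26.8 ± 3.55 on succinate (SD, n = 3 each; exact permutation p = 0.5, and p = 0.4 without the library labelled succinate replicate 1), overlapped as well.

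Few genes switched between near silence and clear expression. A mean under 1 TPM in one medium and of at least 10 TPM in the other was found for 4 called genes, 1 near silent on succinate and 3 near silent on cellobiose. The 1 gene is RTO4_10300, which is listed at 0 in all 3 succinate libraries, and a listed 0 may be a failed estimate. There were 2 and 4 without the library labelled succinate replicate 1. The 3 genes had median group means of 0.579 TPM on cellobiose and 14.2 TPM on succinate in the deletion strain. All 3 were also called lower on cellobiose in the wild type, where the medians were 1.76 TPM on cellobiose and 36.8 TPM on succinate. The deletion strain's succinate libraries were far apart for these genes, with medians of 3.41, 19.4 and 27.8 TPM in replicates 1 to 3.

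The genes with the greatest differences in each direction were followed through all 18 libraries. To be eligible a gene had to be called and without overlap between libraries, both with and without the library labelled succinate replicate 1, and reach a mean of 10 TPM in either medium. There were 490 eligible higher and 382 eligible lower genes.

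RTO4_9135 was high on cellobiose in both strains and higher in the wild type. It stood at 415, 704 and 268 TPM in the deletion strain on cellobiose and at 90.2, 27.4 and 2.84 TPM in its succinate replicates 1 to 3. All 3 libraries on cellobiose were above all 3 on succinate, and the library labelled succinate replicate 1 was the highest of these. The log2 difference was 4.32 ± 0.69 (SE; limma adjusted p = 0.000672), and without that library it was 5.36 ± 0.58 (SE; limma adjusted p = 8.2e-06). In the wild type the gene was at 2061, 2110 and 1601 TPM on cellobiose and at 5.56, 7.94 and 3.94 TPM on succinate. Its log2 difference there was 8.17 ± 0.69 (SE; limma adjusted p = 8.43e-07). Without carbon it was at 12.4 to 20.2 TPM in the deletion strain and 10.1 to 24.1 TPM in the wild type. The interaction, the medium difference in the deletion strain minus that in the wild type, was -3.86 ± 0.97 on the log2 scale (SE; limma adjusted p = 0.0209). It was -2.81 ± 0.77 without the library labelled succinate replicate 1 (SE; limma adjusted p = 0.0346). The interaction did not pass without wild type succinate replicate 3 (limma adjusted p = 0.0652) or without deletion cellobiose replicate 1 (limma adjusted p = 0.0574) or 3 (limma adjusted p = 0.0538). The deletion strain thus held a cellobiose difference for RTO4_9135, with a level on cellobiose below every wild type library on that sugar.

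RTO4_10300 was named for its log2 difference, which rests on listed zeros, and its values were erratic. That difference, 4.79, was below the 5.36 of RTO4_9135 without the library labelled succinate replicate 1. It was at 49.3, 8.37 and 43.5 TPM in the deletion strain on cellobiose and was listed at 0 in all 3 libraries on succinate. It was also listed at 0 in wild type replicate 2 on cellobiose, wild type replicate 2 on succinate and wild type replicate 3 without carbon, beside 6.73 to 144 TPM in the other wild type libraries. The deletion libraries without carbon held 67.7, 36.5 and 92.3 TPM. A listed 0 in these files may be a failed estimate, and the size of the log2 difference rests on the 1 added to TPM. The log2 difference was 8.04 with 0.1 TPM added and 2.71 with 5 TPM added. The call (limma adjusted p = 0.0239) remained without the library labelled succinate replicate 1 (limma adjusted p = 0.0349) and without cellobiose replicate 2 (limma adjusted p = 0.0335). It was lost without each of the other 4 libraries, with limma adjusted p of 0.0542 and 0.0848 without succinate replicates 2 and 3, and 0.103 and 0.0688 without cellobiose replicates 1 and 3. The interaction of 5.55 ± 1.94 (SE) did not pass the test (limma adjusted p = 0.0796). It did not pass either without the library labelled succinate replicate 1 (limma adjusted p = 0.109). It passed under some alternatives, among them a fit of the groups compared (limma adjusted p = 0.0415).

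RTO4_13771 fell most on cellobiose among the eligible genes with all 6 libraries, and fell less than RTO4_12417 without the library labelled succinate replicate 1. Its levels were 4.37, 5.53 and 4.62 TPM in the deletion strain on cellobiose and 46.4, 113 and 268 TPM in its succinate replicates 1 to 3. The groups did not overlap, and the log2 difference was -4.28 ± 0.55 (SE; limma adjusted p = 0.000127), or -4.91 ± 0.54 without the library labelled succinate replicate 1 (SE; limma adjusted p = 1.01e-05). The wild type held 293, 240 and 81.9 TPM on cellobiose and 250, 277 and 66.5 TPM on succinate, and these groups overlapped. The interaction was -4.39 ± 0.78 on the log2 scale (SE; limma adjusted p = 0.00524), or -5.02 ± 0.73 without that library (SE; limma adjusted p = 0.00169). Without carbon RTO4_13771 was at 12.0 to 14.8 TPM in the deletion strain and 13.3 to 23.1 TPM in the wild type, so the deletion libraries on cellobiose were the lowest of all 18.

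RTO4_12417 was lower on cellobiose in both strains. It was at 0.309, 1.30 and 1.86 TPM in the deletion strain on cellobiose and at 7.18, 51.6 and 118 TPM in its succinate replicates 1 to 3. The library labelled succinate replicate 1 was again the nearest to cellobiose. The log2 difference was -4.18 ± 0.74 (SE; limma adjusted p = 0.00143), and without that library it was -5.27 ± 0.63 (SE; limma adjusted p = 1.9e-05). The wild type was at 46.4, 32.6 and 15.8 TPM on cellobiose and at 108, 110 and 357 TPM on succinate. Its log2 difference there was -2.45 ± 0.74 (SE; limma adjusted p = 0.036). The interaction of -1.73 ± 1.04 (SE) did not pass the test (limma adjusted p = 0.293). It did not pass either without the library labelled succinate replicate 1, at -2.82 ± 0.85 (SE; limma adjusted p = 0.0529).

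**Figure D4:**
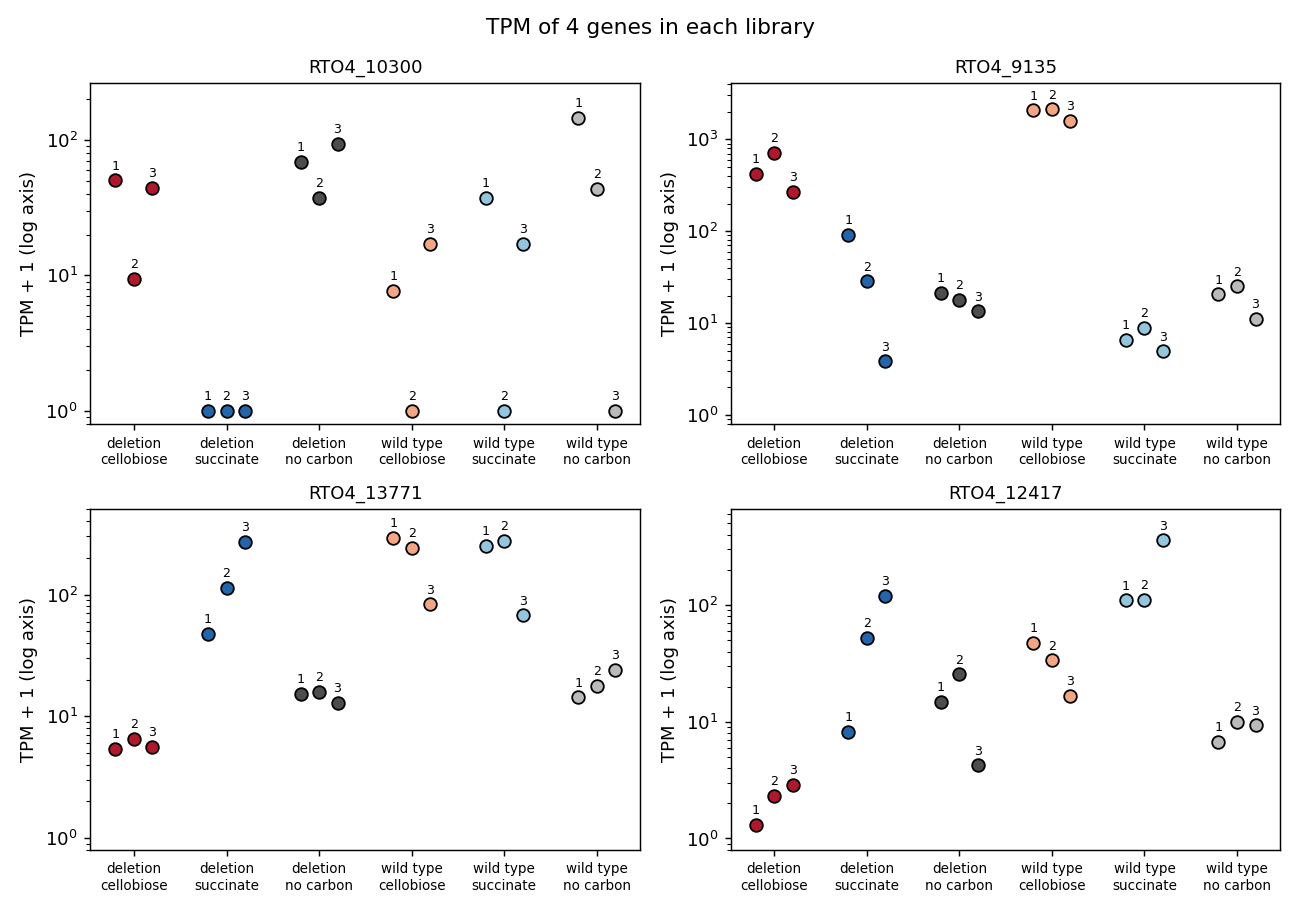
TPM + 1 on a log axis for 4 genes in each of the 18 libraries, grouped by strain and medium and numbered by replicate, so a point at 1 is a listed value of 0. RTO4_9135 is highest on cellobiose in both strains, and RTO4_13771 is at 4.37 to 5.53 TPM in the deletion strain on cellobiose, against 81.9 to 293 TPM in the wild type on cellobiose.

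The same media were compared in the wild type. Both comparisons came from 1 fit, so they share the filter and the estimate of spread, although the differences themselves are between separate libraries. In the wild type 802 genes (10.1%) were called, 590 (7.43%) higher and 212 (2.67%) lower on cellobiose. This balance turned with scaling, to 113 higher and 380 lower after median-ratio scaling and 115 and 217 after quantile normalization. Of the 660 genes higher in the deletion strain, 84 were also higher in the wild type, which is 12.7% of the deletion list and 14.2% of the wild type list, and 7 were lower. Of the 454 genes lower in the deletion strain, 48 were also lower in the wild type, which is 10.6% of the deletion list and 22.6% of the wild type list, and 16 were higher. Leaving out the library labelled succinate replicate 1 changed the spread shared by all groups, and so the wild type calls, to 627 higher and 235 lower. In that fit 179 genes were higher in both strains, which is 19.5% of the deletion list and 28.5% of the wild type list. Lower in both were 104 genes, which is 19.0% of the deletion list and 44.3% of the wild type list. Across all genes the log2 differences of the strains had r = 0.24, as a description.

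The 84 genes higher in both had a median log2 difference of 1.54 in the deletion strain and 1.64 in the wild type. Their median of group means was 93.0 TPM on cellobiose and 35.2 TPM on succinate in the deletion strain, and 44.8 TPM on cellobiose and 11.4 TPM on succinate in the wild type. The 48 genes lower in both had medians of -2.05 in the deletion strain and -2.35 in the wild type. These genes were chosen for passing both tests, so the medians are a description.

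The interaction tested whether the medium difference itself differed between the strains. It was called for 623 genes (7.85%), 203 (2.56%) with a more positive difference in the deletion strain and 420 (5.29%) with a more negative one. This balance also depended on scaling. After median-ratio scaling 659 genes had a more positive and 488 a more negative difference, and after quantile normalization 352 and 407. Without the library labelled succinate replicate 1 there were 153 and 331 in TPM, 638 and 520 after median-ratio scaling and 403 and 445 after quantile normalization, and without deletion replicate 1 on cellobiose there were 166 in all. It shares libraries with the deletion comparison, so its calls among the genes above are no separate evidence of their direction. Of the 660 higher genes 128 had a called interaction in the positive direction, and of the 454 lower genes 218 had one in the negative direction.

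The levels of these interaction genes show where the strains part. The 128 higher genes had median group means of 15.2 TPM on cellobiose and 4.15 TPM on succinate in the deletion strain, against 1.65 TPM on cellobiose and 2.82 TPM on succinate in the wild type. The 218 lower genes were at 24.2 TPM on cellobiose and 77.1 TPM on succinate in the deletion strain, against 91.5 TPM on cellobiose and 73.3 TPM on succinate in the wild type. In both sets the medians of the strains lay farther apart on cellobiose than on succinate, within genes that the interaction itself chose.

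**Figure D5:**
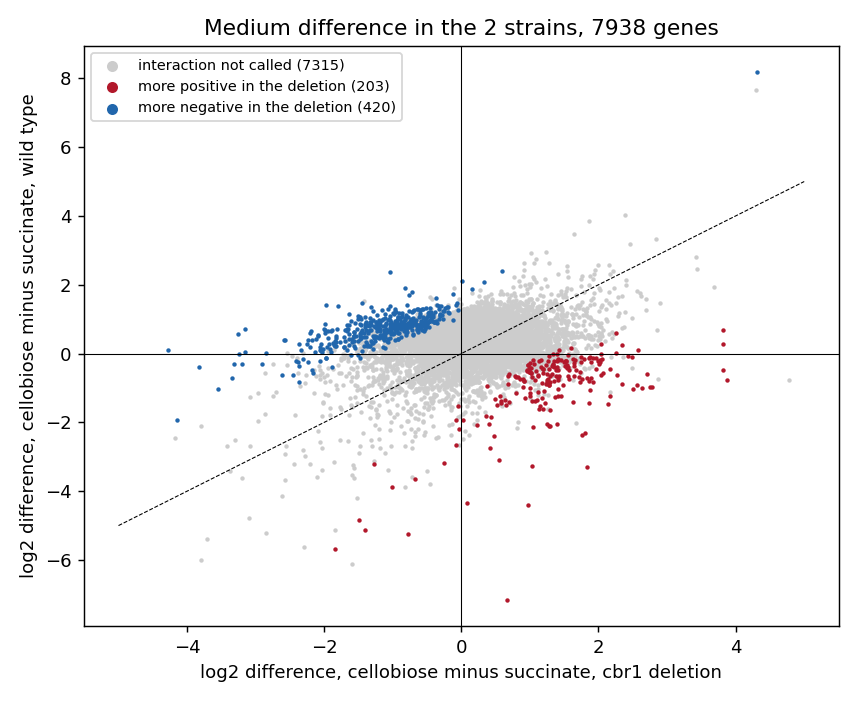
The log2 difference of cellobiose minus succinate in the deletion strain (horizontal) and in the wild type (vertical), 1 point per gene. The dashed line marks equal differences. Red points (203) have a called interaction with a more positive difference in the deletion strain and blue points (420) a more negative one, and most blue points lie left of 0 and above the horizontal axis. After median-ratio scaling, not drawn, the counts are 659 and 488.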

How the data were processed

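Per the labels' protocols, RNA from 18 cultures was enriched for poly-A and sequenced by Illumina methods. The deposited TPM values, made by the authors, came as 1 column for each library, matched to samples by library name. Salmon 1.10.0 is named in the submitters' processing notes, whereas its index, annotation and options are not stated. Read numbers cannot be recovered from TPM, and library depth stays unknown. A rise of a few abundant genes lowers the TPM of all others.

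Values were transformed to log2(TPM + 1), which understates changes of low genes. Testing was limited to the 7938 of 8484 genes whose average over the 18 libraries reached 1 TPM. A linear model with 1 mean for each of 6 groups was fitted (limma 3.58.1, R 4.3.3, spread modelled as a trend on level), and p-values were adjusted by Benjamini-Hochberg within each comparison. The model was tested on simulated data. Genes named were the 2 with the largest difference in each direction among eligible genes, without overlap and with a mean of at least 10 TPM. The comparison, gene sets and tests were chosen with earlier results of these data known. The look at genes that separate all other libraries by medium or strain, and the rescaling with succinate replicate 1 left out, were added after the library values were seen. Alternatives covered the pseudocount, filter, scaling, fit, weights, threshold, replicate block and each library left out.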

Additional observations from a re-analysis of the deposited data

Results flagged for a closer look

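The difference between cellobiose and succinate differed between the deletion strain and the wild type for 623 genes by limma's interaction term, and that count ran from 166 to 895 with a single library left out. More negative differences in the deletion strain were the majority in TPM (203 more positive, 420 more negative) and the minority after median-ratio scaling (659 and 488). Among the genes described singly, RTO4_9135 had an interaction of -3.86 on the log2 scale (limma adjusted p = 0.0209), since the gene was higher on cellobiose in both strains and less so in the deletion strain. Without the library labelled deletion succinate replicate 1 this interaction was -2.81 (limma adjusted p = 0.0346), and without succinate replicate 3 of that strain it was -5.10. It did not pass with 3 other libraries left out in turn. RTO4_13771 had an interaction of -4.39 (limma adjusted p = 0.00524), or -5.02 without deletion succinate replicate 1 (limma adjusted p = 0.00169). It had a difference in the deletion strain and overlapping media in the wild type. Neither interaction passed limma's treat, a test for differences beyond 1 log2 unit (treat adjusted p = 0.458 for RTO4_9135 and 0.122 for RTO4_13771).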

How the results depend on the processing

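For the deletion strain on cellobiose against succinate, the count of 1114 was within 1.5 times under every alternative that kept all libraries except limma's treat, a test for differences beyond 1 log2 unit, with 19 genes. Leaving out 1 library gave 343 to 1467. In the wild type the count of 802 became 493 with median-ratio scaling, 332 with quantile normalization, 419 in a fit of its 6 libraries, 27 with treat and 77 with the replicate block in that fit, and 230 to 1171 with a library left out (230 without succinate replicate 3, 248 without cellobiose replicate 2, 461 without cellobiose replicate 1). The interaction count of 623 became 1147 with median-ratio scaling, 1862 with array weights, 4 with treat and 1223 with the replicate block over all 18 libraries, and 166 to 895 with a library left out. With deletion succinate replicate 1 left out, a choice made after seeing the data, its 484 genes became 1158 with median-ratio scaling as well, and 848 with quantile normalization. The interaction count was 166, 348 and 374 without deletion replicates 1, 2 and 3 on cellobiose, 328 and 293 when wild type cellobiose 1 or 2 was dropped, and 276 when wild type succinate 3 was. The 132 genes called alike in both strains became 84 in fits of the groups compared, 1 with treat, 290 with array weights, 38 with the replicate block in the groups compared and 217 with it over all 18 libraries, and 42 to 283 with a library left out (42, 47, 63, 64, 74 and 78 in the lowest cases, without deletion succinate 3, deletion cellobiose 1, wild type cellobiose 2, deletion cellobiose 2, wild type succinate 3 and deletion succinate 2, and 283 without deletion succinate 1). The 4 near-silent genes became 1 to 6, and the 82% shared between the lists of 100 abundant genes became 77% to 84%, with a library left out. The causes of these changes were not tested.

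The replicate block raised the count to 1349, against 1145 without the block, in the fit of the 6 libraries, and to 1280, against 1114, over all 18. Same-numbered deletion libraries on cellobiose and succinate deviated together with r of 0.22, 0.09 and 0.20 for numbers 1, 2 and 3. Each library correlated best with its own number. Replicate 3 had the lowest median TPM in every group of strain and medium, by little in the wild type on cellobiose. The main fit did not take the numbers to pair the samples, and what same-numbered libraries share was not tested. For the medium difference in the deletion strain, RTO4_9135 and RTO4_13771 were called under all 18 alternatives. RTO4_12417 was called under 17 (lost with treat) and RTO4_10300 under 13. The interactions of RTO4_9135 and RTO4_13771 were lost with treat. Depth is unknown, so no detection limit could be set for low genes.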
